A study of Mus musculus with 12 samples.

Results

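The 10 genes described here make, conjugate, move and sense bile acids in the liver: Cyp7a1, Cyp8b1, Cyp27a1, Cyp7b1, Slc27a5, Baat, Slc10a1, Abcb11, Abcb4 and Nr0b2. They were chosen by symbol for these known roles, are 10 of the 23849 symbols in the table, and all 10 passed the minimum for testing (mean FPKM of 1 or more), as did 9806 symbols in all. The livers came from male C57BL/6 mice, 8 weeks old per the labels, which were all fed a high-fat diet (HFD). Control mice (Cntrl) received drinking water by gavage, and treated mice received Policaptil Gel Retard, a mixture of plant fibers that forms a gel and that the labels call Libramed, once daily for 2 weeks shortly before the lights went off. Livers were taken at ZT0 or ZT12, where Zeitgeber time (ZT) counts hours from lights on, so that ZT12 is the start of the active phase and ZT0 its end. Each of the 4 groups (Cntrl ZT0, Cntrl ZT12, Libramed ZT0 and Libramed ZT12) holds 3 mice. No group on a normal diet was sequenced here, and the tested product acts in the gut lumen, which was not sampled.

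Bile acids are made from cholesterol in hepatocytes. The classic pathway starts with Cyp7a1 and the alternative pathway with Cyp27a1 and Cyp7b1, while Cyp8b1 sets how much cholic acid is formed. Slc27a5 and Baat then join the bile acids to taurine or glycine, Abcb11 exports them into bile beside the phospholipid transporter Abcb4, and Slc10a1 takes them up again from portal blood. Bile acids that return bind the nuclear receptor FXR (Nr1h4), which induces Abcb11 and the corepressor Nr0b2 (SHP). SHP, together with FGF15 from the ileum acting on Fgfr4, represses Cyp7a1. Cyp7a1 is also known as a strongly daily gene, under control of clock factors such as DBP and REV-ERBα (Nr1d1).

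The stretches of 250 bases before the start of Abcb11, Nr0b2 and Slc10a1 are shown because these 3 genes differed between ZT0 and ZT12 and the RefSeq promoter table (GRCm38.p6) lists them. It lists 6 of the 10 members. Each sequence runs 5′ to 3′ on the gene's strand, and capitals mark matches to 6 motifs searched on both strands. These were the E-box CACGTG, read by CLOCK and BMAL1, the nuclear receptor half-site AGGTCA, the D-box TTATGNAA, the LRH-1 site CAAGGNCA, the HNF4 site CAAAGNCCA, and the inverted repeat known for FXR (IR-1), here GGNCA and TGNCC with 1 base of any kind between them.
Abcb11, chr2:69342617-69342866, minus strand: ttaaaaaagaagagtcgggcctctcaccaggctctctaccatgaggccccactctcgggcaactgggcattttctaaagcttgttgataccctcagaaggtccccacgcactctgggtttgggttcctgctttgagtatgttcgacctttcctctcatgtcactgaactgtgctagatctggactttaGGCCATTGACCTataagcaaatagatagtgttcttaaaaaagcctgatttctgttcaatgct
Nr0b2, chr4:133553126-133553375, plus strand: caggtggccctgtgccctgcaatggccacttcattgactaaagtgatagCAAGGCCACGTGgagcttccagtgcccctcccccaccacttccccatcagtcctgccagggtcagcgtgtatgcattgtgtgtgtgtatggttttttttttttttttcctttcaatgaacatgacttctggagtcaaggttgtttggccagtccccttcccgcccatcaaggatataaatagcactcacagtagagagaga
Slc10a1, chr12:80968706-80968955, minus strand: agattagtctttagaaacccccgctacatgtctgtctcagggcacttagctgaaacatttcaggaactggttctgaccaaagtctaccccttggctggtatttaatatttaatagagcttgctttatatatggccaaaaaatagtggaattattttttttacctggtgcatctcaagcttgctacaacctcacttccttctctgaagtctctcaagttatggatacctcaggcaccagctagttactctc
The Abcb11 stretch holds 1 IR-1 match, 52 to 62 bases before the start, and this motif is found in 0.575% of the 32851 stretches of the same length in the table. A reverse complement of the half-site AGGTCA overlaps its 3′ end, a motif that 14% of all stretches hold. In the Nr0b2 stretch a match to the LRH-1 site (5.53% of stretches) overlaps an E-box (6.02% of stretches), the 2 lying between 190 and 201 bases before the start. The Slc10a1 stretch shown holds none of the 6 motifs, while a second stretch that the table lists for this gene (chr12:80968080-80968329, minus strand) holds the half-site AGGTCA 82 to 87 bases before its start. Among members that did not pass the test between times, Cyp8b1 holds a match to the HNF4 site (1.7% of stretches) overlapping a match to the LRH-1 site, and Cyp27a1 holds a D-box 53 to 60 bases before its start (3.07% of stretches). These are matches of letters only.

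The authors' values are FPKM, fragments scaled to transcript length and to the mapped total, so levels can be set side by side between genes. Over the 12 samples the highest mean was that of Slc27a5 (492 FPKM, rank 192 of all symbols), followed by Slc10a1 (421), Cyp27a1 (332), Cyp8b1 (293), Baat (153), Cyp7b1 (146), Abcb11 (84.0), Nr0b2 (67.7), Abcb4 (59.8) and Cyp7a1 (29.2, rank 2058). Cyp7a1, the rate-limiting enzyme of the classic pathway, had the lowest mean over all livers, but at ZT12 the mean of Nr0b2 was lower than that of Cyp7a1 in both treatments (37.6 and 48.2 FPKM in Cntrl mice, 42.8 and 44.8 FPKM in Libramed mice). Neighbours in this order were not always apart. Cyp27a1 exceeded Cyp8b1 in 7 of 12 livers, Baat exceeded Cyp7b1 in 7 of 12, and Nr0b2 exceeded Abcb4 in 6 of 12. Cyp8b1 exceeded Baat in 12 of 12. Between single mice the level moved most for Cyp7a1 (15.6-fold from lowest to highest), Cyp7b1 (7.60-fold) and Nr0b2 (7.49-fold) and least for Baat (1.19-fold).

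**Figure D1:**
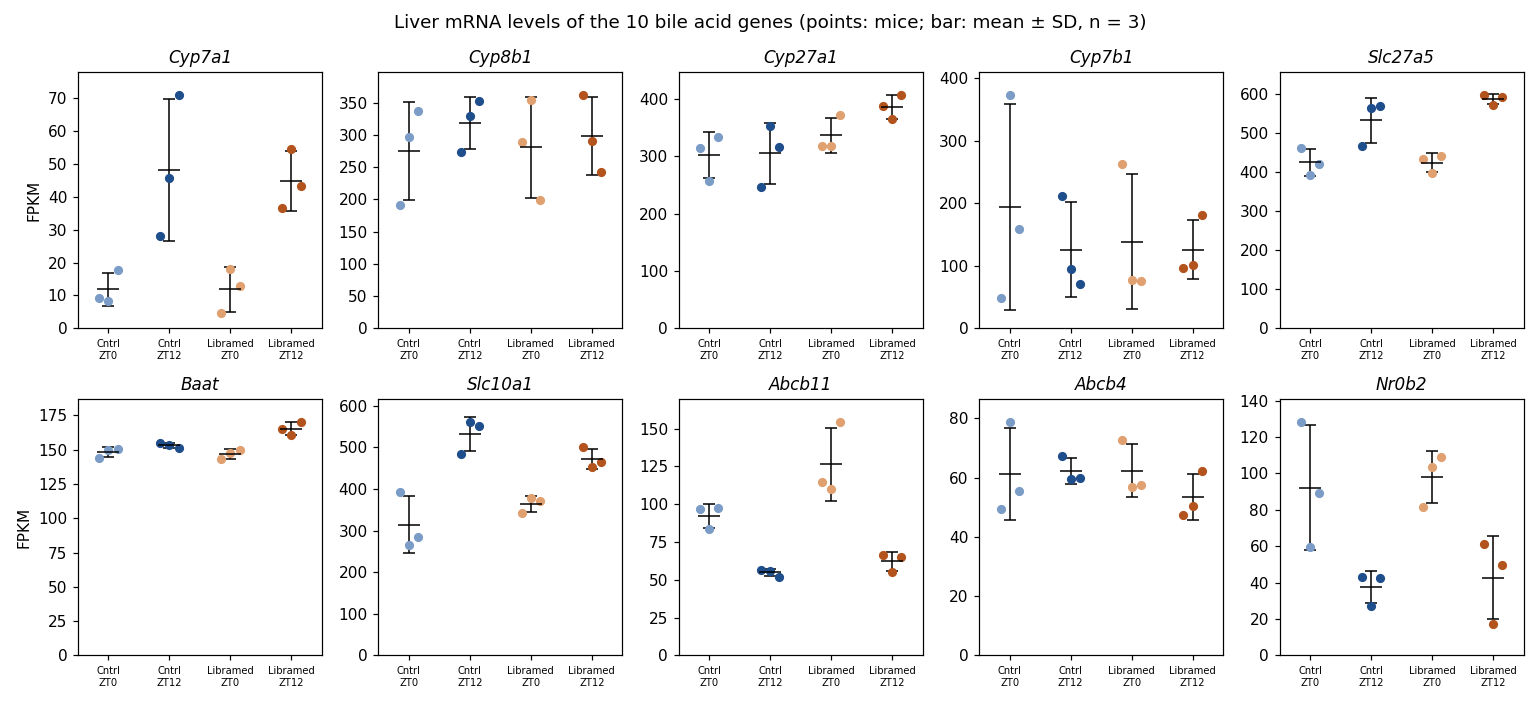
FPKM of the 10 members in each liver (vertical axes, linear, from 0) for the 4 groups (horizontal axes). Points are mice and bars are the mean ± SD (n = 3). Cyp7a1 lies at 28.0 or above in each ZT12 liver and at 18.1 or below in each ZT0 liver, while Abcb11 lies the other way round.

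The relative depth of the libraries ranged 1.75-fold, and the total count of reads is unknown, so the spread between mice sets the precision. Of the 7 hepatocyte markers tested, each was above 365 FPKM in every liver, while the albumin gene Alb is listed at 0 in all 12. Of 6 enterocyte markers, Alpi and Fgf15 are listed at 0 in every liver. Vil1 reached at most 0.0663 FPKM and Lct at most 0.00783 FPKM, while Fabp2 lay at 105 to 165 FPKM and Slc10a2 at 5.26 to 11.9 FPKM. Of 5 pancreatic acinar markers, Cpa1 and Cpb1 are listed at 0. Ctrb1 reached at most 0.0844 FPKM and Pnlip at most 0.0525 FPKM, while Cela1 lay at 30.2 to 75.5 FPKM and fell over both treatments. The summed level of endothelial markers was 23.3 to 38.2 FPKM at ZT0 and 12.2 to 20.7 FPKM at ZT12. Over both treatments 4 of 4 tested endothelial markers fell, beside 13.8% of all genes. The summed level of stellate markers was 30.1 to 60.7 FPKM at ZT0 and 23.1 to 44.2 FPKM at ZT12, ranges that overlap. Over both treatments 3 of 4 tested stellate markers fell, beside the same 13.8%. Within treatments, 0 markers of either list passed in Cntrl mice (10.4% of all genes) and 2 of each list in Libramed mice (12.4%). Most of each sum came from a single gene, Clec4g (mean 19.2 FPKM) and Dcn (mean 36.8 FPKM). None of the endothelial or stellate markers was at 0 in all livers. In whole liver, fewer cells of a type and less RNA per cell cannot be told apart, and the part of these markers in the results below was not tested.

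Classic pathway. Cyp7a1 (chr4:6265612-6275633, mm10, minus strand) was 4.09-fold higher at ZT12 than at ZT0 in Cntrl mice and 3.80-fold higher in Libramed mice. In Cntrl livers it measured 9.30, 8.38 and 17.7 FPKM at ZT0 and 28.0, 45.7 and 71.0 FPKM at ZT12. In Libramed livers it measured 4.56, 18.1 and 12.8 FPKM at ZT0 and 36.7, 54.7 and 43.2 FPKM at ZT12. Neither pair of groups overlapped, and the gap between the highest ZT0 liver and the lowest ZT12 liver held across treatments too. Cyp7a1 rose in both treatments, with a log2 fold change of 1.92 ± 0.38 (SE, adjusted p = 0.0271) in Cntrl and 2.00 ± 0.42 (adjusted p = 0.0264) in Libramed mice. Over both treatments the log2 fold change was 1.96 ± 0.30 (adjusted p = 0.000562; exact permutation p = 0.005, the smallest that 400 arrangements allow). The call in Cntrl mice was kept without ZT0 replicate 3 or ZT12 replicate 1 and ended without any other 1 Cntrl library. In Libramed mice it ended without ZT0 replicate 3, ZT12 replicate 2 or ZT12 replicate 3, and with no minimum FPKM it ended in both treatments. Cyp8b1 (chr9:121914356-121916305, minus strand), the sterol 12α-hydroxylase, ranged from 191 to 354 FPKM over the ZT0 livers and from 242 to 361 FPKM over the ZT12 livers, and the groups overlapped in both treatments (adjusted p = 0.524 in Cntrl and 0.800 in Libramed mice).

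Alternative pathway. Neither enzyme passed the test between times in either treatment. Cyp27a1 (chr1:74713574-74737892, plus strand), the mitochondrial sterol 27-hydroxylase, had means of 302 ± 40.0 FPKM (SD, n = 3) at ZT0 and 305 ± 53.3 FPKM at ZT12 in Cntrl mice. In Libramed mice the means were 336 ± 31.1 and 386 ± 21.0 FPKM (adjusted p = 0.219). Cyp7b1 (chr3:18071950-18243338, minus strand), the oxysterol 7α-hydroxylase, varied widely within groups, with 49.1, 373 and 159 FPKM at ZT0 and 212, 94.4 and 70.4 FPKM at ZT12 in Cntrl mice. In Libramed mice it measured 263, 77.8 and 75.3 FPKM at ZT0 and 95.9, 100.7 and 181 FPKM at ZT12. In every group 1 liver stood well above the other 2, and the 95% interval of the log2 change with time in Cntrl mice reached from -2.10 to 1.40. A change of that gene with time was not detectable at this spread.

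Conjugation. Slc27a5 (chr7:12988346-12998192, minus strand), the bile acid CoA ligase, was higher at ZT12, by 38.3% in Libramed mice and 25.3% in Cntrl mice. In Libramed livers it measured 434, 398 and 441 FPKM at ZT0 and 597, 572 and 592 FPKM at ZT12. In Cntrl livers it measured 463, 393 and 420.1 FPKM at ZT0 and 466, 564 and 568 FPKM at ZT12. Groups did not overlap in either treatment, although 1 Cntrl ZT12 liver lay close to the ZT0 range. Slc27a5 rose in Libramed mice (log2 fold change 0.47 ± 0.08, adjusted p = 0.0138) and over both treatments (0.39 ± 0.07, adjusted p = 0.00115). The call in Libramed mice ended without ZT12 replicate 2 (adjusted p = 0.0521) or ZT12 replicate 3 (adjusted p = 0.0507). In Cntrl mice the log2 fold change was 0.32 ± 0.11 (adjusted p = 0.125; exact permutation p = 0.1, the smallest that 3 against 3 mice allow). In a fit over all 12 samples Slc27a5 did pass the adjusted threshold in Cntrl mice. Baat (chr4:49489422-49506557, minus strand), the transferase that adds taurine or glycine, was the steadiest member. It lay between 143 and 151 FPKM in the 6 ZT0 livers and between 151 and 170 FPKM in the 6 ZT12 livers. The ranges touch but do not overlap, and the log2 change over both treatments was 0.11 ± 0.05 (adjusted p = 0.0915; exact permutation p = 0.005). Within Libramed mice it was 0.17 ± 0.07 (adjusted p = 0.169; exact permutation p = 0.1).

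Transport. The uptake and the export pump for bile acids moved in opposite directions with time. Slc10a1 (NTCP; chr12:80953183-80968705, minus strand), which brings bile acids back into hepatocytes, measured 392, 267 and 285 FPKM at ZT0 and 485, 560.2 and 552 FPKM at ZT12 in Cntrl mice. In Libramed mice it measured 341, 379 and 370.2 FPKM at ZT0 and 499.97, 453 and 466 FPKM at ZT12. Every ZT12 liver was above every ZT0 liver. Slc10a1 rose by 0.78 ± 0.16 on the log2 scale in Cntrl mice (adjusted p = 0.0290) and by 0.38 ± 0.08 in Libramed mice (adjusted p = 0.0309). After quantile normalization the Libramed value was 0.21 (adjusted p = 0.160), and leaving out any 1 Libramed library also ended the call in those mice. In Cntrl mice the call was kept without ZT0 replicate 1 and ended without any other 1 Cntrl library, and the replicate block ended it in both treatments (adjusted p = 0.0930 in Cntrl and 0.0783 in Libramed mice). With no minimum FPKM the call of Slc10a1 also ended in both treatments, and in a fit over all 12 samples it ended in Libramed mice.

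Abcb11 (BSEP; chr2:69238282-69342616, minus strand), the canalicular export pump whose promoter stretch holds the IR-1 match, measured 96.8, 83.3 and 97.3 FPKM at ZT0 and 56.6, 55.9 and 52.1 FPKM at ZT12 in Cntrl mice. In Libramed mice it measured 115, 110.2 and 154 FPKM at ZT0 and 66.5, 55.2 and 65.2 FPKM at ZT12. The 6 ZT12 livers all lay below the 6 ZT0 livers. Abcb11 fell in Cntrl mice (log2 fold change -0.74 ± 0.09, adjusted p = 0.00739) and in Libramed mice (-0.997 ± 0.145, adjusted p = 0.00823). Exons of Abcb11 overlap the antisense genes Gm13613 and Gm13614. The sources differ on whether the libraries kept strand, so reads of these could be counted together. Abcb4 (MDR2; chr5:8893717-8959231, plus strand), the phospholipid floppase, ranged from 49.3 to 78.6 FPKM at ZT0 and from 47.4 to 67.4 FPKM at ZT12, with overlap in both treatments.

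Regulator. Nr0b2 (SHP; chr4:133553376-133556536, plus strand) measured 128, 59.4 and 89.4 FPKM at ZT0 and 43.0, 27.3 and 42.4 FPKM at ZT12 in Cntrl mice. In Libramed mice it measured 81.8, 104 and 109 FPKM at ZT0 and 61.5, 17.1 and 49.8 FPKM at ZT12. Groups did not overlap within either treatment, but the highest Libramed ZT12 liver was above the lowest Cntrl ZT0 liver. Nr0b2 fell in Cntrl mice (log2 fold change -1.23 ± 0.30, adjusted p = 0.0459) and over both treatments (-1.29 ± 0.28, adjusted p = 0.00463). In Libramed mice the log2 fold change was -1.35 ± 0.43 (adjusted p = 0.0849; exact permutation p = 0.1). Without Libramed ZT12 replicate 2, the library of lowest relative depth, it was -0.80 with an adjusted p of 0.0460. In Cntrl mice the call was kept without ZT0 replicate 2 and ended without any other 1 library. With no minimum FPKM it ended too.

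**Figure D2:**
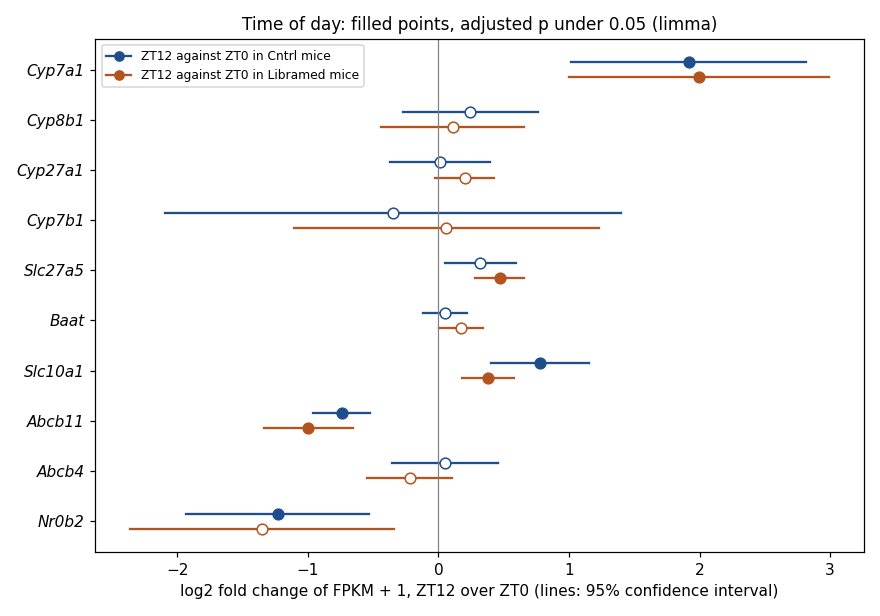
Log2 fold change of FPKM + 1 at ZT12 over ZT0 for each member (horizontal axis; 0 is no change), in Cntrl mice (blue) and Libramed mice (brown). Lines are 95% confidence intervals and filled points have an adjusted p under 0.05, with Cyp7a1 and Slc10a1 to the right and Abcb11 to the left in both treatments.

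Counted together, 4 of the 10 members passed the adjusted threshold between times in Cntrl mice (Cyp7a1 and Slc10a1 higher, Abcb11 and Nr0b2 lower), beside 10.4% of all genes tested (5.62% higher and 4.78% lower). In Libramed mice 4 of 10 passed (Cyp7a1, Slc27a5 and Slc10a1 higher, Abcb11 lower), beside 12.4% of all genes (7% higher and 5.36% lower). Over both treatments 5 of 10 passed, beside 29.7% of all genes (15.9% higher and 13.8% lower). Groups were apart for 6 of 10 members in Cntrl mice (33.2% of all genes) and 6 of 10 in Libramed mice (34.9%). They were apart over both treatments for 5 of 10 (13.3% of all genes). The median absolute log2 change over both treatments was 0.29 for the members and 0.15 for all genes. The counts within a treatment depended on single livers. Without any 1 of the 6 Cntrl libraries, 1 or 2 members passed, and Abcb11 was among them each time. In Libramed mice 2 members passed without ZT0 replicate 3 or without ZT12 replicate 2, and 1 passed without ZT12 replicate 3. Over both treatments 5 members passed in every alternative run.

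The genes around the members, taken from lists of known pathway genes, were also compared between times. The counts of each list stand beside 5.62% of all genes higher and 4.78% lower in Cntrl mice, and 7% and 5.36% in Libramed mice. Of 22 other synthesis enzymes tested, 8 rose and 1 fell in Cntrl mice and 8 rose and 1 fell in Libramed mice, with a median log2 change of 0.28 and 0.22 beside 0.01 for all genes in both. Por, which passes electrons to the microsomal P450 enzymes, went from 63.0 ± 23.6 to 300.1 ± 69.5 FPKM in Cntrl mice and from 71.5 ± 25.0 to 333 ± 54.8 FPKM in Libramed mice. Its log2 change over both treatments was 2.27 ± 0.21 (adjusted p = 1.92e-05). Fdx1, the mitochondrial electron carrier that serves Cyp27a1, rose from 87.6 ± 7.56 to 151 ± 13.1 FPKM in Cntrl mice and from 93.8 ± 14.5 to 153 ± 10.7 FPKM in Libramed mice. Hsd3b7, which acts after Cyp7a1, fell from 445 ± 22.4 to 281 ± 21.2 FPKM in Cntrl and from 458 ± 9.74 to 254 ± 38.6 FPKM in Libramed mice. So Cyp7a1 and the enzyme that follows it moved in opposite directions. Acot12 also rose in both treatments.

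Among 19 other transporters tested, 5 rose and 1 fell in Cntrl mice and 4 rose and 1 fell in Libramed mice, beside the same shares of all genes. Abcg5 and Abcg8, the paired pump that sends cholesterol into bile, rose in both. Abcg5 had 26.3 ± 3.31 and 52.6 ± 4.70 FPKM in Cntrl mice and 29.5 ± 5.21 and 61.8 ± 6.42 FPKM in Libramed mice, at ZT0 and ZT12. Slc9a3r1, a scaffold protein of apical membranes, rose by 0.71 ± 0.06 on the log2 scale over both treatments (adjusted p = 5.38e-06). Atp8b1, the canalicular flippase, fell by 0.43 ± 0.06 on the same scale (adjusted p = 0.0002). The canalicular cholesterol pump and the bile salt pump Abcb11 thus moved in opposite directions with time.

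Of 27 regulators tested, 6 rose and 3 fell in Cntrl mice, and 8 rose and 4 fell in Libramed mice. Nr1h4, which encodes FXR itself, rose from 63.7 ± 5.80 to 89.6 ± 4.33 FPKM in Cntrl and from 58.3 ± 5.75 to 86.8 ± 8.02 FPKM in Libramed mice, while its known targets Nr0b2 and Abcb11 were lower at ZT12. Fgfr4, the FGF15 receptor of hepatocytes, fell from 24.9 ± 2.86 to 18.5 ± 0.352 FPKM in Cntrl mice and had 24.4 ± 1.27 and 17.8 ± 3.87 FPKM in Libramed mice. Its coreceptor Klb had an adjusted p of 0.222 over both treatments. Nr5a2 (LRH-1) had 8.20 ± 0.320 and 6.49 ± 0.598 FPKM in Cntrl mice and fell from 8.33 ± 0.678 to 5.76 ± 0.232 FPKM in Libramed mice. Among clock output genes, Nr1d1 fell from 37.3 ± 17.9 to 8.55 ± 3.74 FPKM and Dbp rose from 8.92 ± 8.22 to 62.0 ± 10.6 FPKM in Cntrl mice. In Libramed mice Nr1d1 fell from 47.4 ± 9.08 to 6.33 ± 1.43 FPKM and Dbp rose from 21.9 ± 4.72 to 62.0 ± 18.6 FPKM.

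**Figure D3:**
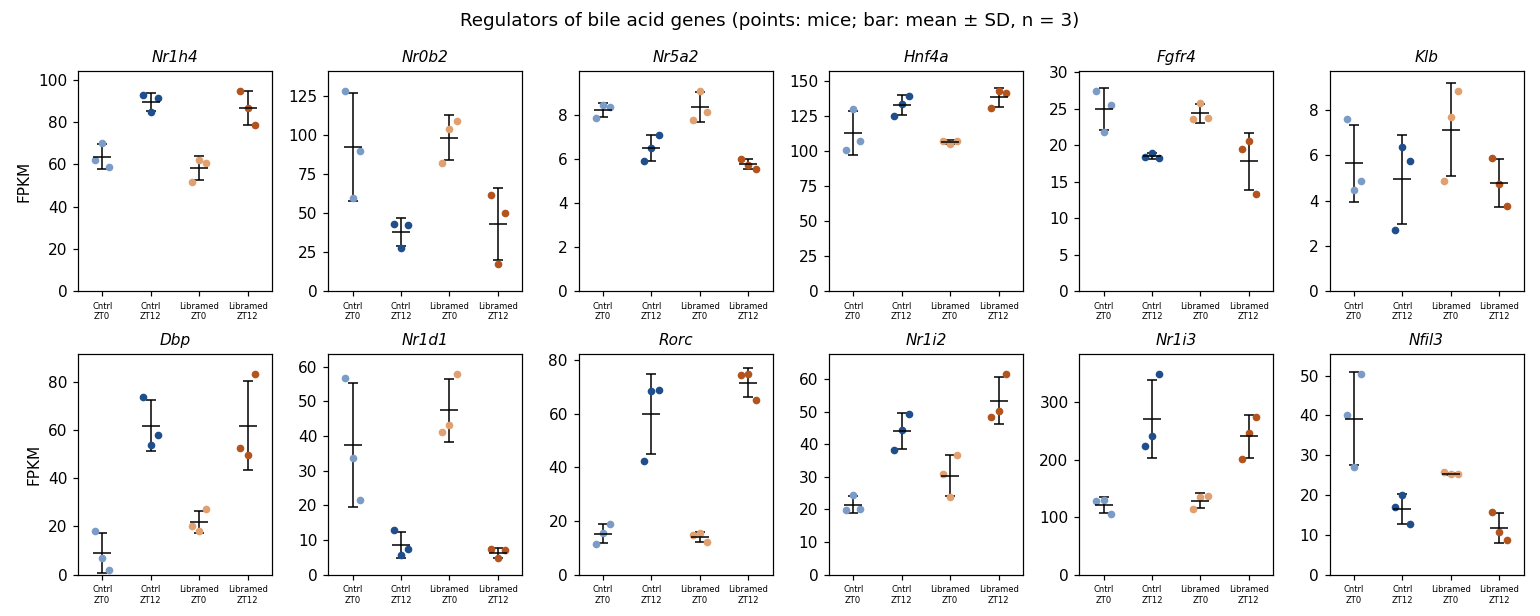
FPKM of Nr0b2 and 11 other regulators in each liver (vertical axes, linear, from 0) for the 4 groups. Points are mice and bars the mean ± SD (n = 3). Nr1h4 is higher and Nr0b2 and Nr1d1 are lower in the ZT12 livers of both treatments.

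Of 11 FXR targets tested, 2 fell and 0 rose in Cntrl mice (Abcb11 and Nr0b2, both members), and 1 fell and 2 rose in Libramed mice (Abcb11; Slc27a5 and Fetub). This list shares Nr0b2, Abcb11, Abcb4, Slc27a5 and Baat with the members. In Cntrl mice, 0 of the 10 sterol-responsive genes tested passed by limma, while 4 had an unadjusted p under 0.05, all lower (13% of all genes), and Cyber-T called 4, all lower (6.6% of all genes). In Libramed mice Hmgcs1 and Idi1, enzymes of cholesterol synthesis, fell, Hmgcs1 from 232 ± 62.7 to 49.6 ± 20.5 FPKM. Over both treatments 5 of the 10 fell (Hmgcs1, Idi1, Sqle, Insig1 and Stard4), beside 13.8% of all genes, with a list median log2 change of -0.53.

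The study tested the product in mice fed HFD, and the libraries allow its comparison in liver at each time. Comparing Libramed with Cntrl livers, 0 of the 10 members passed the adjusted threshold at ZT0 or at ZT12, beside 0% of all 9806 genes by limma at each time. At an unadjusted p under 0.05, 1 of 10 passed at ZT0 (9.23% of all genes) and 1 of 10 at ZT12 (6.74%). Cyber-T called 69 genes at ZT0 and 23 at ZT12, none of them a member. Over both times 0 members passed the adjusted threshold (0.0204% of all genes) and 2 of 10 had an unadjusted p under 0.05 (10.1%). The summed hepatocyte markers were 42541 to 46816 FPKM in Cntrl and 47655 to 57432 FPKM in Libramed livers at ZT12. At ZT0 the sums overlapped, at 42045 to 47627 and 47292 to 57923 FPKM. Apoa1 gave the largest part of the sum, with means of 21726 FPKM in Cntrl and 25316 FPKM in Libramed livers at ZT12. At ZT0 its means were 22771 and 29394 FPKM, and its ranges did not overlap (21895 to 23584 and 25809 to 32458 FPKM). The summed cholangiocyte (bile duct cell) markers were 50.9 to 54.5 FPKM in Cntrl and 35.1 to 48.5 FPKM in Libramed livers at ZT12. At ZT0 these sums overlapped, and Spp1 (mean 34.7 FPKM) gave the largest part. At ZT12, 3 of 5 cholangiocyte and 2 of 7 hepatocyte markers tested had an unadjusted p under 0.05 by limma (6.74% of all genes). In both lists 0 passed the adjusted threshold. The part of the hepatocyte and cholangiocyte markers in the values below was not tested.

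Cyp7a1 did not differ between treatments beyond the spread of the mice. Libramed over Cntrl gave a log2 difference of -0.10 at ZT0 (95% interval -1.20 to 1.00), -0.02 at ZT12 (-0.78 to 0.73) and -0.06 over both times (-0.72 to 0.60). For Nr0b2 the log2 difference was 0.15 at ZT0 (-0.48 to 0.77), 0.03 at ZT12 (-1.05 to 1.104) and 0.09 over both times (-0.52 to 0.69).

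The member with an unadjusted p under 0.05 at ZT0 was Abcb11, where the 3 Libramed livers (110.2 to 154 FPKM) lay above the 3 Cntrl livers (83.3 to 97.3 FPKM). The log2 difference was 0.43 ± 0.15 (adjusted p = 0.503; exact permutation p = 0.1). At ZT12 the 2 groups overlapped, at 55.2 to 66.5 and 52.1 to 56.6 FPKM. Over both times the log2 difference was 0.31 ± 0.09 (p = 0.00677 by limma, adjusted p = 0.362; exact permutation p = 0.015). At ZT0 the difference was 0.36 without Cntrl replicate 2 and 0.28 without Libramed replicate 3, and in both cases the unadjusted p was above 0.05.

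At ZT12 it was Cyp27a1, with 387, 365 and 407 FPKM in Libramed and 247, 352 and 316 FPKM in Cntrl livers. The groups did not overlap, and the log2 difference was 0.35 ± 0.13 (adjusted p = 0.729; exact permutation p = 0.1). Over both times it was 0.26 ± 0.10 (p = 0.0209 by limma, adjusted p = 0.419; exact permutation p = 0.030). At ZT12 the difference was 0.21 without Cntrl replicate 1. The unadjusted p was above 0.05 then, and also without Cntrl replicate 3 (0.39), Libramed replicate 1 (0.35) or Libramed replicate 3 (0.31). Slc27a5 and Baat also had ZT12 groups that did not overlap, both higher in Libramed livers. That made 3 of 10 members apart at ZT12, beside 13.1% of all genes, and 1 of 10 at ZT0, beside 15.1%.

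**Figure D4:**
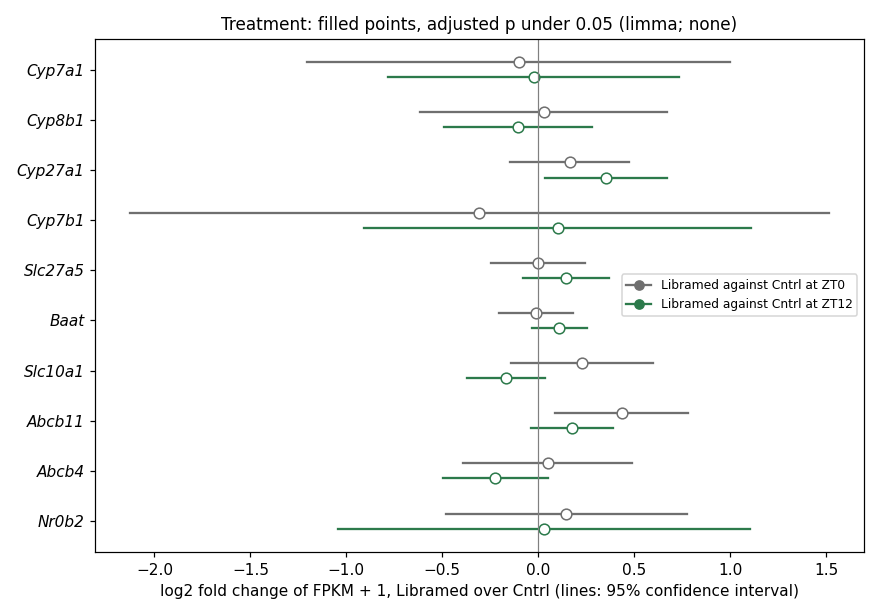
Log2 fold change of FPKM + 1 in Libramed over Cntrl livers for each member (horizontal axis; 0 is no change), at ZT0 (grey) and at ZT12 (green). Lines are 95% confidence intervals. All points are open because no adjusted p was under 0.05, and the interval of Cyp7b1 at ZT0 is the widest.

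Whether the change with time itself differed between treatments was tested as an interaction. By limma 0 of 10 members passed, beside 0% of all genes, and 0 of 10 had an unadjusted p under 0.05, beside 6.63% of all genes. Cyber-T called 77 genes, none of them a member. For Cyp7a1 the difference of the log2 changes was 0.08 (95% interval -1.31 to 1.46), and for Nr0b2 it was -0.12 (-1.39 to 1.16). The smallest p was that of Slc10a1, whose log2 rise in Libramed mice was smaller than in Cntrl mice by a difference of -0.40 ± 0.18 (p = 0.0540 by limma, adjusted p = 0.755; exact permutation p = 0.065). It was -0.57 without Cntrl ZT0 replicate 1, -0.46 without Cntrl ZT12 replicate 1 and -0.48 after quantile normalization, each with an unadjusted p under 0.05. Other runs weaken it. Leaving out Cntrl ZT0 replicate 2 (267 FPKM) or replicate 3 (285 FPKM), the lower livers of that group, makes the difference smaller in size. Baat had an exact permutation p of 0.030 but a limma p of 0.201.

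The regulators and other lists gave the same count between treatments. In the 5 lists, 0 genes passed the adjusted threshold by limma at ZT0, at ZT12, over both times or for the interaction. At an unadjusted p under 0.05, 5 of 27 regulators, 3 of 19 other transporters, 2 of 11 FXR targets, 1 of 22 other synthesis enzymes and 0 of 10 sterol-responsive genes passed at ZT0, beside 9.23% of all genes. At ZT12 1 of the 22 synthesis enzymes passed and 0 genes of the other 4 lists, beside 6.74% of all genes. Cyber-T called the regulator Dbp at ZT0 and for the interaction, Dbp and Nfil3 over both times, and the synthesis enzyme Cyp39a1 for the interaction, and no gene of the 5 lists at ZT12. These genes were named after their values were seen. Nr1i2 (PXR), the xenobiotic receptor that bile acids can also bind, had 21.4 ± 2.56 FPKM in Cntrl and 30.4 ± 6.35 FPKM in Libramed livers at ZT0. At ZT12 it had 44.0 ± 5.55 and 53.3 ± 7.18 FPKM (adjusted p over both times = 0.355). For Nr1h4 the adjusted p over both times was 0.676 and for Fgfr4 it was 0.871.

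Differences between mice of the same group set the limits above, and for Cyp7b1 they were large and shared with other genes. After each group's mean was subtracted, the log2 level of Cyp7b1 followed that of Abcb4 over the 12 livers (r = 0.92, Spearman's rho = 0.75) and ran against that of Slc10a1 (r = -0.87, rho = -0.79). These 2 are the highest and the lowest r of Cyp7b1 with the other members, and the rest ran from -0.61 (Slc27a5) to 0.29 (Baat). They are descriptions over 12 livers that share their libraries. Without the 2 livers farthest from the median (Cntrl ZT0 replicate 2 and Libramed ZT0 replicate 1) r was 0.85 for Abcb4 and -0.85 for Slc10a1. The livers with the most Cyp7b1 in each group, such as Cntrl ZT0 replicate 2 (373 FPKM) and Libramed ZT0 replicate 1 (263 FPKM), had the most Abcb4 in their group (78.6 and 72.6 FPKM).

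Cyp7b1 is known to be higher in male than in female mouse liver, under control of pulsatile growth hormone. Genes of the same male-biased kind were therefore set beside it, a choice made after the values of Cyp7b1 were seen, so no test was run. All 14 male-biased genes tested had a positive correlation with Cyp7b1, with a median within-group r of 0.89 beside 0.06 for all genes. Ugt2b38, among these 14, was also the tested gene most like Cyp7b1 over the 12 livers (r = 0.96). The count and the median are therefore a description only. Mup1, a major urinary protein, ranged from 44.5 to 269 FPKM (within-group r = 0.96), and Cyp4a12b from 4.75 to 28.2 FPKM (r = 0.96). Of 12 female-biased genes, 5 were tested and 0 had a positive correlation, with a median within-group r of -0.72. Cyp17a1, among these, ranged from 3.20 to 29.8 FPKM (r = -0.86). Values of Mup1 and Cyp4a12b are uncertain, since both have near-identical copies. The mice were all male, and hormone levels and housing were not analysed here.

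**Figure D5:**
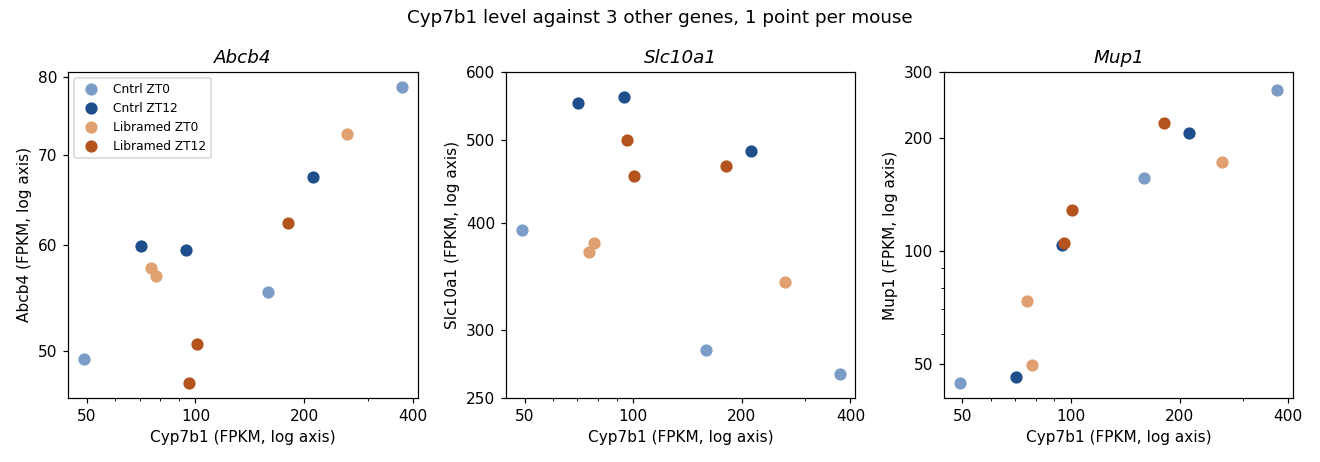
FPKM of Abcb4, Slc10a1 and Mup1 (vertical, log axes) against FPKM of Cyp7b1 (horizontal, log axis), 1 point per liver, coloured by group. In the panel of Mup1 the points climb from Cntrl ZT0 replicate 1 (49.1 FPKM of Cyp7b1, 44.5 of Mup1) to Cntrl ZT0 replicate 2 (373 and 269).

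Over the 12 livers, the 5 genes whose log2 level was most like that of Cyp7a1 were Kifc2 (r = 0.97), Stap2, Cpped1, Secisbp2l and Rhobtb1 (each r = 0.94). Most like Nr0b2 were 8430408G22Rik (r = 0.98), Prkcdbp and Gimap1 (each r = 0.94), Prr13 and Suz12 (each r = 0.93). The resemblance of 8430408G22Rik also held within groups, with r = 0.95 after the group means were subtracted. That transcript ranged from 10.6 to 138 FPKM and was lowest in Libramed ZT12 replicate 2, which also had the lowest Nr0b2. Among the members, Abcb11 and Nr0b2 had r = 0.57 within groups, Cyp27a1 and Slc27a5 had r = 0.81, and Cyp7a1 and Nr0b2 had r = -0.03. Cyp7a1 and Nr0b2 had opposite levels at the 2 times of day. Whether they also ran opposite among mice of the same group cannot be told from this r of -0.03. The 12 livers are too few to estimate it closely, and the part of Nr0b2 in the level of Cyp7a1 was not tested.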

How the data were processed

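Liver RNA of 12 mice was sequenced as single-end reads. The methods describe ELAND alignment to mm10, unique reads and RPKM, while the submitters' processing notes name TopHat and Cuffnorm. The authors deposited FPKM per gene and sample, with no counts, so counting error and depth are unknown. Relative depth was estimated from genes under 0.1 FPKM. Groups came from the labels, and replicates are separate mice.

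Of 24138 lines, 289 repeated a symbol and the highest was kept. Values were tested as log2(FPKM + 1) with limma 3.58.1 in R 4.3.3 (mean-variance trend, two-sided, Benjamini-Hochberg over 9806 genes whose mean was 1 FPKM or more). Pairs of groups were fitted on their 6 samples, effects over both treatments or times and the interaction on 12. Adding 1 understates changes of low genes. Exact permutation tests used 20 arrangements for 3 against 3 (smallest p 0.1) or 400. Alternatives were other pseudocounts, minima, scalings, a replicate block, a version of Cyber-T, and each library left out. Scripts were tested on simulated data. The members and lists were chosen with earlier results of these data known. Named genes are the members, with fold changes where p was under 0.05 (always for Cyp7a1 and Nr0b2), up to 4 list genes per comparison by p, regulators and FXR targets, and the 5 genes most like Cyp7a1 and Nr0b2. Slc10a1 in the interaction and the sex-biased genes were added after their values were seen.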

Additional observations from a re-analysis of the deposited data

How the results depend on the processing

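Between times, the number of members with an adjusted p under 0.05 was 4 in each treatment. With no minimum FPKM it was 1 in Cntrl mice and 2 in Libramed mice, where more genes are tested. Leaving out 1 library gave 1 to 2 in Cntrl mice and 1 to 3 in Libramed mice. Over both treatments it was 5, and between treatments and for the interaction 0, in every alternative run. With the replicate number as a block, 3 members passed in Cntrl and 3 in Libramed mice, Slc10a1 being the one lost. The labels do not say whether the numbers pair the mice. Deviations of same-numbered samples correlated by -0.28 to 0.26, and most samples correlated best with another number. With 3 mice a group, these values cannot tell whether the numbers mark pairs. Quantile normalization gave Slc10a1 a log2 change of 0.21 in Libramed mice. Nr0b2 passed in Libramed mice by Cyber-T (adjusted p = 0.00135) and in a fit over 12 samples (0.0476), where it missed in Cntrl mice (0.0646). Of the member fold changes, 30 were followed over the alternatives. These had an unadjusted p under 0.05, belonged to Cyp7a1 or Nr0b2, or were that of Slc10a1 in the interaction. Over the alternative runs of these, 457 values kept direction and side of the threshold, 35 lost it, 4 gained it and 19 changed sign. The cause of the changes was not tested. Those that changed sign were small in the main run and did so only when a library was left out. The values reached without a library were not always small. For Cyp7a1 the treatment difference then ranged from -0.48 to 0.41 at ZT0, -0.36 to 0.30 at ZT12 and -0.23 to 0.17 over both times, and the interaction from -0.44 to 0.45. For Nr0b2 these ranges were -0.13 to 0.41, -0.32 to 0.57, -0.061 to 0.34 and -0.46 to 0.43. Each group holds 3 mice, and the files give no read counts.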

Other observations

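Over the 12 livers, the genes most like Cyp7b1, ranked after its values were seen, were Ugt2b38 (r = 0.96), Serpine2 (r = 0.94), Ces4a, Lifr and Tpp2 (each r = 0.93). Ugt2b38 is also among the 14 male-biased genes above. Ces4a, a carboxylesterase, had r = 0.99 after group means were subtracted and ranged from 0.787 to 7.18 FPKM. Selenbp2 ranged 11.9-fold between livers, from 83.4 to 990 FPKM, with a within-group r of 0.98. The female-biased acyl-CoA thioesterase Acot3 ran the other way, from 0.159 to 19.2 FPKM, with a within-group r of -0.92.

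Slc51b, a subunit of the basolateral bile acid exporter and an FXR target, lay under the minimum for testing. At ZT0 it had 0 to 0.869 FPKM in Cntrl and 1.03 to 2.38 FPKM in Libramed livers, while 15.1% of all tested genes had groups apart at this time. The transporter Abcb1b, also under the minimum, was apart at ZT0 in the other direction. It had 0.252 to 0.329 FPKM in Cntrl and 0.115 to 0.147 FPKM in Libramed livers. At ZT12 the groups of Slc51b overlapped, at 0.168 to 1.39 and 0.632 to 1.09 FPKM. Slc51a, the partner of Slc51b, and the bile acid receptor Gpbar1 are listed at 0 in all livers, as is Fgf15.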
